A study of Mus musculus with 10 samples.

Results

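The 10 genes described here are known targets of the tumour suppressor p53, followed in cultured cells of the mouse olfactory epithelium given a hairpin against Cbx8 or Cbx7. The members, chosen by name, were Pmaip1, Bbc3, Bax, Fas, Zmat3, Mdm2, Ccng1, Sesn1, Trp53inp1 and Phlda3. All 10 were found by their Ensembl identifiers among 41091 gene identifiers, and all 10 passed the filter on low counts, which left 16669 genes. Total RNA was sequenced from 3 libraries with a short hairpin RNA (shRNA) against Cbx8 (shCBX8 1, 2 and 6), 3 with an shRNA against Cbx7 (shCBX7 1, 2 and 5) and 4 with a non-targeting shRNA (shCTR 1, 2, 5 and 6). Both genes encode alternative chromodomain subunits of the Polycomb repressor PRC1, through which the complex reads methylated histone H3. All 3 groups share their source and handling. The cells came from adult C57BL6 mice 9 days after methimazole, a drug that destroys the olfactory epithelium and starts its regrowth. They were dissociated, grown attached to gelatin with EGF and FGF2 and given their hairpin by lentivirus. The labels name 1 hairpin per group and leave unstated whether replicates are separate cultures or animals. The spread behind each p-value is thus that of these libraries and may be technical.

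The p53 protein, encoded by Trp53 in mice, is a transcription factor that is kept scarce by the ubiquitin ligase MDM2 and is stabilised after DNA damage and other stress. It binds response elements near its targets, whose products stop the cell cycle, repair DNA, limit growth signals or start apoptosis. Death can follow from within the cell, when proteins with only a BH3 domain such as PUMA (Bbc3) and NOXA (Pmaip1) set BAX free to open mitochondria, or from outside it, through the death receptor FAS.

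The p53 response element is made of a pair of 10-base units, the p53 decamer, set next to each other or a few bases apart. RefSeq promoter windows of GRCm38.p6, 250 bases before and 50 bases from each annotated start, were at hand for 7 of the 10 genes, in 10 windows. An exact decamer on either strand stood in 4 of these windows, against 8.36% of all 32851 windows, and a pair of decamers up to 13 bases apart with at most 2 mismatches in 3, against 4.09% of all windows. These 4 are shown because the genes they belong to differ in what was measured: Sesn1 was lower in shCBX8 than in shCTR libraries, and Bax, Mdm2 and Ccng1 did not pass the test. Capitals mark the pair of decamers with any bases between them, or in Mdm2 the single decamer. The Bax stretch is chr7:45467068-45467136 on the minus strand, its match beginning 216 bases before the start. The Ccng1 stretch is chr11:40755440-40755503 on the minus strand, with the match 195 bases before the start and 1 mismatch. The Sesn1 stretch, before the second of its annotated starts, is chr10:41887231-41887297 on the plus strand, and the Mdm2 stretch is chr10:117710913-117710966 on the minus strand, both with matches that begin 186 bases before the start.
Bax: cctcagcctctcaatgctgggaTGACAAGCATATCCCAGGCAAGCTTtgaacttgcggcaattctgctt
Ccng1: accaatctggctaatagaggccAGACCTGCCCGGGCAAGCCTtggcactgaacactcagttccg
Sesn1: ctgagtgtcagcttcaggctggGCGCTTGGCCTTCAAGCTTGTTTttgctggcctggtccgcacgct
Mdm2: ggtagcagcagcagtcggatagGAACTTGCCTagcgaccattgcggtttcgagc
The pairs in Bax and Sesn1 held 2 mismatches each, with 5 and 3 bases between the decamers, and the pair in Ccng1 had no bases between them. The windows of Bbc3, Fas and Phlda3 and the window of the first Sesn1 start held no exact decamer and no such pair. In the windows of Bbc3, Fas and Phlda3 the 50 bases from the start did not lie whole in any GENCODE M21 transcript of the gene. In the windows of Bax, Sesn1, Mdm2 and Ccng1 they did. A match is a description of the sequence and was not tested for binding.

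Gene counts per library ran from 22763014 to 50463172, and levels are given as CPM, counts relative to the scaled library size. Cbx8 measured 4.99, 5.14 and 4.71 CPM in the shCBX8 libraries, against 10.2 to 15.9 CPM in the shCTR libraries (log2 fold change -1.31, SE 0.22, adjusted p = 0.00416 by edgeR's quasi-likelihood test). Cbx7 measured 3.64, 8.02 and 13.1 CPM in the shCBX7 libraries, against 5.30 to 17.7 CPM in the shCTR libraries (-0.67, SE 0.48, adjusted p = 0.929), so its level does not check the shCBX7 label. Unmapped reads made up 5.03 to 7.81% of reads in the shCBX8 and shCBX7 libraries and 9.83 to 21.7% in the shCTR libraries, and the repeat-derived gene model Gm10800 took 0.737 to 1.51% and 1.96 to 10.4% of gene counts. The cultures were a mixture: 10 fibroblast marker genes summed to 878 to 4490 CPM in shCBX8, 6220 to 20700 CPM in shCBX7 and 7970 to 35700 CPM in shCTR libraries, with replicate 2 the highest of each group. In shCBX8 against shCTR their median log2 fold change was -3.46, with Col1a1 and Postn called lower and 8 not passing. Between shCBX8 and shCBX7 0 of the 10 were called, where 28.6% of all genes were. Their median log2 fold change there was -3.04, and 6 were lower in every shCBX8 library than in every shCBX7 library. Markers of horizontal basal cells, the resting stem cells of the epithelium, summed to 2980 to 6460 CPM in shCBX8, 472 to 1810 CPM in shCBX7 and 549 to 1950 CPM in shCTR libraries. Most of this sum was the keratin gene Krt17 in shCBX8 libraries (3310 of 4770 CPM in shCBX8 1), and of the 8 markers Krt17 and Trp63 were called higher, Egfr was called lower and 5 did not pass in shCBX8 against shCTR. Sustentacular cell markers summed to 3620 to 10100 CPM in shCBX8, 78.4 to 1850 CPM in shCBX7 and 131 to 1600 CPM in shCTR libraries, mostly from Krt8 and Krt18. In shCBX8 against shCTR these keratin genes and Sox2 were called higher, Cyp2g1, Cyp2a5 and Ermn did not pass and Cyp1a2 was not tested. The sustentacular gene Cyp2g1 averaged 0.851 CPM in shCBX8, with 1.94 CPM in shCBX8 6, and 0.313 CPM in shCTR libraries. Smooth muscle and pericyte markers summed to 1740 to 5540 CPM in shCBX8, 523 to 1250 CPM in shCBX7 and 530 to 1820 CPM in shCTR libraries. Most of this sum was Rgs5 in shCBX8 libraries (5170 of 5540 CPM in shCBX8 1). Of the 6 markers Rgs5 was called higher and 5 did not pass, with Acta2 (-0.91) and Myh11 (-0.80) below 0. Markers of neurons and their progenitors were mixed in level and direction. Those of immature neurons summed to 28.5 to 82.8 CPM in shCBX8, 115 to 187 CPM in shCBX7 and 85 to 132 CPM in shCTR libraries. In shCBX8 against shCTR their median log2 fold change was -1.38, with 2 of 6 called lower. Progenitor markers summed to 60.3 to 107 CPM in shCBX8 and 33.4 to 45.5 CPM in shCTR libraries. Omp, of mature neurons, averaged 0.276 CPM in shCBX8 and 0.506 CPM in shCTR libraries without passing. Neurog1, of progenitors, averaged under 0.1 CPM over the 10 libraries. Gnal, Hes6 and Lgr5 were called higher in shCBX8 against shCTR, and Ncam1, Stmn2 and Neurod1 lower. The progenitor gene Neurod1 averaged 0.16 CPM in shCBX8 and 0.552 CPM in shCTR libraries. In these bulk libraries fewer cells of a type and less RNA per cell cannot be told apart, and the part of cell mixture or of unmapped and repeat reads in the results that follow was not tested. For the 10 genes 1 library stands apart: shCTR 2 was the lowest shCTR library for 7 of them and the highest for Fas and Sesn1.

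The comparison of shCBX8 with shCTR asked which genes differ when Cbx8 is knocked down. The 10 p53 targets did not move as a block. Pmaip1 rose, while Bbc3, Fas, Zmat3 and Sesn1 fell, and Bax, Mdm2, Ccng1, Trp53inp1 and Phlda3 did not pass the threshold of 0.05 on the Benjamini-Hochberg adjusted p. Over all genes tested 32.9% passed, 17.0% higher and 15.9% lower. The members' 5 of 10, 1 of them higher and 4 lower, stand against that background. For these 5 genes no shCBX8 library overlapped the shCTR range, as for 42.4% of all genes. The median log2 fold change of the 10 was -0.31, against -0.01 over all genes. Scaling by library size only moved the median of all genes to 0.17 and made 67.2% of all called genes higher, against 51.6% with the scaling used, and left the same 5 members called in the same directions.

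Pmaip1 encodes NOXA, a BH3-only protein that binds the survival protein MCL1, and it lies on chromosome 18, bases 66458533 to 66465565 on the plus strand (GRCm38/mm10). It measured 1150, 573 and 1210 CPM in shCBX8 1, 2 and 6, against 145, 52.5, 205 and 257 CPM in shCTR 1, 2, 5 and 6. The lowest shCBX8 library, replicate 2, was above every shCTR library. The means were 978 ± 352 CPM (SD, n = 3) and 165 ± 87.8 CPM (SD, n = 4), or a difference of 2.57 on the log2 scale (SE 0.48, 95% interval 1.48 to 3.66, adjusted p = 0.00607 by edgeR). The exact permutation p, two-sided and on log2(CPM + 1), was 0.0286, which is the minimum for the 35 splits of these 7 libraries. Mcl1 itself averaged 285 CPM in shCBX8 and 295 CPM in shCTR libraries (log2 fold change -0.05, SE 0.21, adjusted p = 0.864).

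Bbc3 encodes PUMA, another BH3-only protein, which binds all the main survival proteins of the BCL2 family, and lies on chromosome 7, bases 16308393 to 16318205 on the plus strand. It measured 13.5, 14.8 and 14.5 CPM in shCBX8 libraries, against 32.7, 15.9, 37.5 and 47.2 CPM in shCTR libraries. The groups did not overlap, but shCTR 2 lay close to the shCBX8 libraries. The log2 fold change was -1.23 (SE 0.30, 95% interval -1.90 to -0.55, adjusted p = 0.0154 by edgeR), and the exact permutation p was 0.0571. Without shCBX8 1 or shCBX8 6 the call ended (adjusted p = 0.0656 and 0.0591).

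The pair of BH3-only genes thus moved in opposite directions in the same libraries. Per kilobase of exon, Pmaip1 stood at 66.6, 30.0 and 65.0 times the level of Bbc3 in shCBX8 1, 2 and 6. The ratio was 5.42, 3.61 and 5.82 in shCBX7 1, 2 and 5, and 3.44, 2.56, 4.24 and 4.24 in shCTR 1, 2, 5 and 6. This ratio does not depend on how libraries are scaled, and it was chosen after the values were seen, so it carries no test.

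Bax, the pore-forming protein on which BH3-only proteins act, lies on chromosome 7, bases 45461697 to 45466898 on the minus strand, and carries the pair of decamers shown above. It measured 119, 108 and 116 CPM in shCBX8 libraries, against 155, 99.9, 161 and 164 CPM in shCTR libraries. The groups overlapped through shCTR 2, the only shCTR library under the shCBX8 libraries. The log2 fold change was -0.34 (SE 0.17, 95% interval -0.73 to 0.04, adjusted p = 0.147 by edgeR). Without shCTR 2 it was -0.51 with adjusted p = 0.0152, and without the 3 replicate 2 libraries, an alternative added after seeing the data, -0.44 with adjusted p = 0.0269. A share of 12.2% of its exon bases overlaps the gene model Gm45808 on the same strand, which has no entry in the counts used here.

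Fas encodes the cell surface receptor through which FAS ligand starts apoptosis, on chromosome 19, bases 34290666 to 34327772 on the plus strand. It measured 18.5, 19.3 and 13.2 CPM in shCBX8 libraries, against 74.4, 94.8, 70.7 and 32.2 CPM in shCTR libraries. No library overlapped, and shCTR 6 was the shCTR library nearest to the shCBX8 level. Fas fell by 2.0 on the log2 scale (SE 0.41, 95% interval -2.92 to -1.08, adjusted p = 0.00825 by edgeR), to 17.0 ± 3.31 CPM (SD, n = 3) in shCBX8, against 68.0 ± 26.2 CPM (SD, n = 4) in shCTR libraries.

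Sesn1 encodes sestrin 1, a stress protein that restrains mTORC1, on chromosome 10, bases 41809935 to 41908424 on the plus strand. It measured 16.9, 15.7 and 15.9 CPM in shCBX8 libraries, against 51.9, 59.9, 38.0 and 30.0 CPM in shCTR libraries. The shCBX8 libraries were close to each other and below all shCTR libraries. Sesn1 fell by 1.47 on the log2 scale (SE 0.28, 95% interval -2.10 to -0.85, adjusted p = 0.00617 by edgeR).

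Zmat3 encodes a zinc finger RNA-binding protein that acts in splicing, on chromosome 3, bases 32334792 to 32366014 on the minus strand. It measured 62.1, 54.2 and 49.5 CPM in shCBX8 libraries, against 113, 82.7, 79.5 and 118 CPM in shCTR libraries. The groups did not overlap, and the fall of 0.83 on the log2 scale (SE 0.17, 95% interval -1.22 to -0.44, adjusted p = 0.00911 by edgeR) was the smallest of the 4. For Fas the exact permutation p was 0.0571, and for Sesn1 and Zmat3 it was 0.0286. The calls of Pmaip1, Fas, Sesn1 and Zmat3 held in all 21 alternatives tried, including each library left out and the 3 replicate 2 libraries left out.

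**Figure D1:**
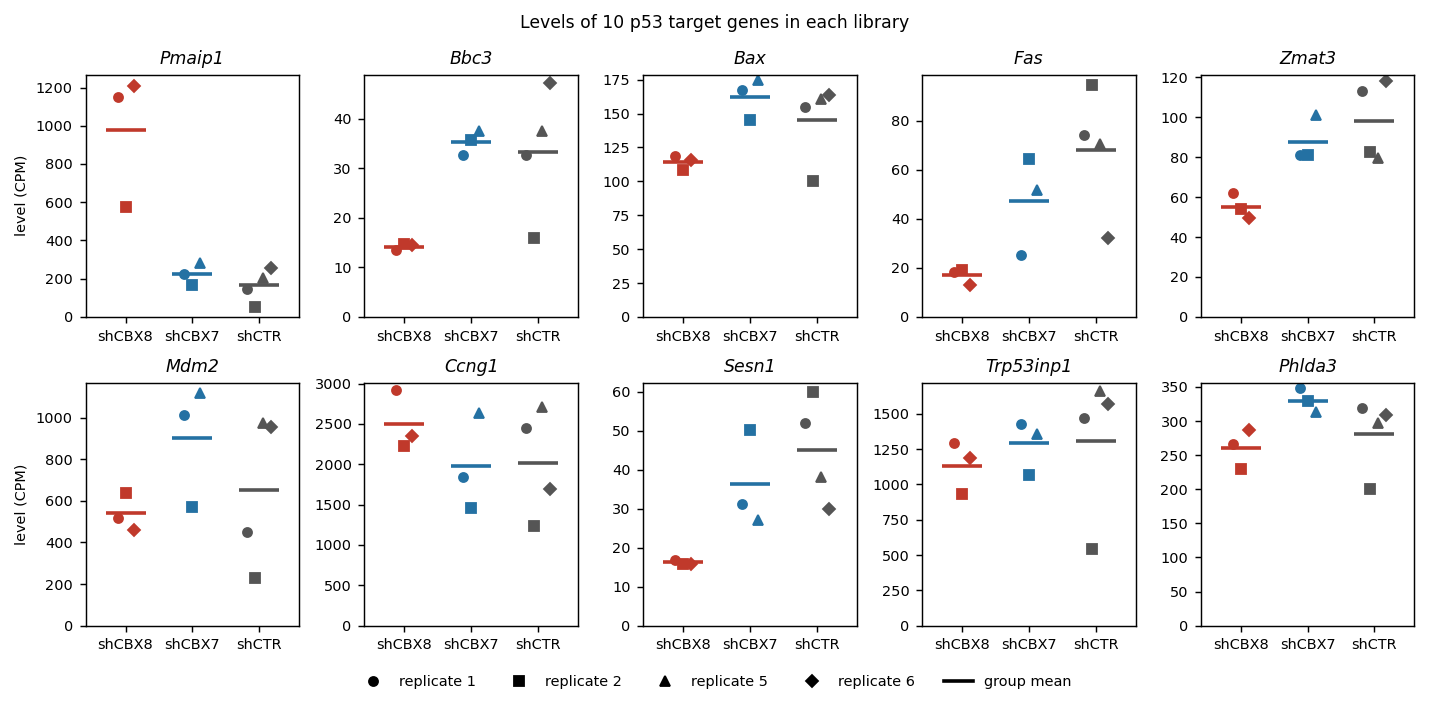
Level of each of the 10 p53 target genes in CPM (vertical axes, linear, from 0) in every library of shCBX8, shCBX7 and shCTR; points are libraries, shaped by replicate number, and bars are group means. Pmaip1 sits at 573 to 1210 CPM in shCBX8 libraries and at 52.5 to 257 CPM in shCTR libraries, whereas Bbc3, Fas, Sesn1 and Zmat3 are lowest in shCBX8 libraries.

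The feedback genes and the other effectors did not pass. Mdm2, the ubiquitin ligase that degrades p53 and is itself its target, lies on chromosome 10, bases 117688875 to 117710758 on the minus strand. It measured 518, 637 and 461 CPM in shCBX8 libraries, against 451, 231, 975 and 955 CPM in shCTR libraries. The shCTR libraries fell on both sides of the shCBX8 libraries, and the 95% interval of the log2 fold change ran from -1.32 to 0.76 (value -0.28, adjusted p = 0.668 by edgeR). Trp53inp1, a nuclear protein that acts with p53 in apoptosis, lies on chromosome 4, bases 11156431 to 11174379 on the plus strand. It measured 1290, 929 and 1190 CPM in shCBX8 libraries, against 1470, 545, 1660 and 1570 CPM in shCTR libraries (log2 fold change -0.21, 95% interval -0.98 to 0.56).

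Ccng1, cyclin G1, which recruits a phosphatase to MDM2, lies on chromosome 11, bases 40748552 to 40755311 on the minus strand. It measured 2920, 2230 and 2350 CPM in shCBX8 libraries, against 2450, 1230, 2710 and 1690 CPM in shCTR libraries (log2 fold change 0.31, 95% interval -0.39 to 1.0). The ranges overlapped. Phlda3, a pleckstrin homology protein that holds back AKT, lies on chromosome 1, bases 135766119 to 135769136 on the plus strand. It measured 266, 229 and 287 CPM in shCBX8 libraries, against 319, 200, 297 and 309 CPM in shCTR libraries (log2 fold change -0.11, 95% interval -0.49 to 0.28). Its interval was the narrowest of these 4, and the other intervals do not show that Mdm2, Trp53inp1 and Ccng1 stayed level.

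**Figure D2:**
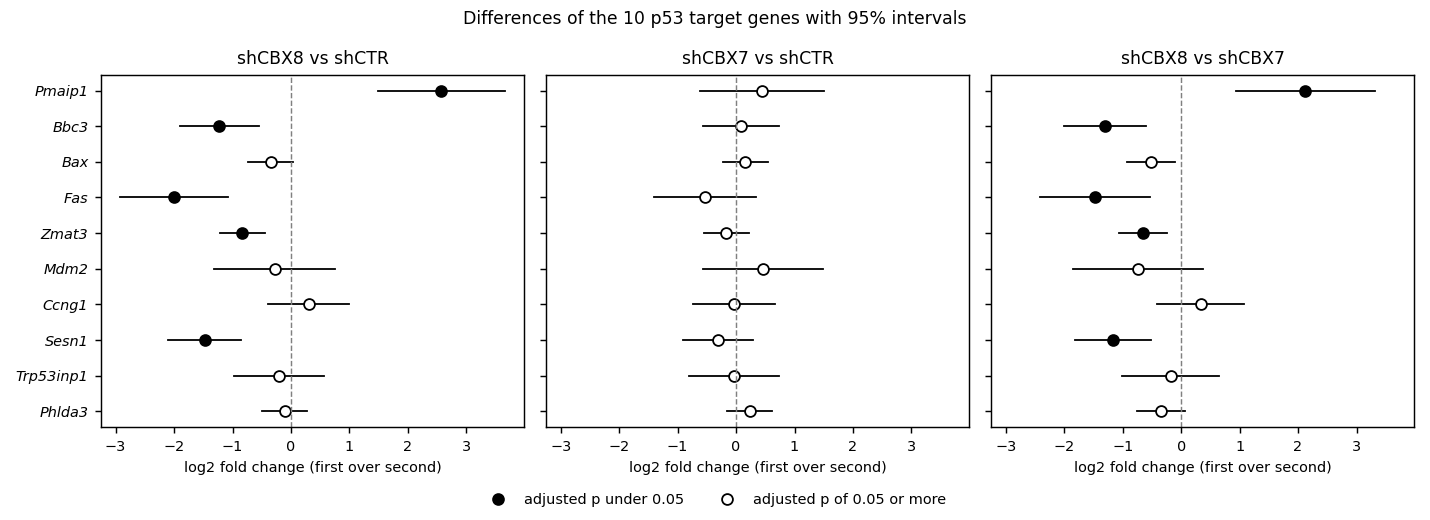
Log2 fold changes (horizontal axis, first group over second) of the 10 genes in the 3 comparisons, with 95% intervals from edgeR's quasi-likelihood fit; filled points passed the adjusted p of 0.05. Pmaip1 lies to the right and Bbc3, Fas, Zmat3 and Sesn1 to the left in both comparisons of shCBX8, and no point is filled for shCBX7 against shCTR.

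Between genes, levels can be compared only per length, so CPM were divided by exon length. In shCBX8 libraries Ccng1 came first with a mean of 711 CPM per kilobase (635 to 831), followed by Pmaip1 at 358 (210 to 443) and Trp53inp1 at 175 (143 to 199), and these 3 did not overlap. At the low end Bbc3 stood at 6.71, Zmat3 at 4.84 and Sesn1 at 4.06 CPM per kilobase. In shCBX7 libraries Ccng1 (563) again came first, and Pmaip1 was the sixth (82.1). In shCTR libraries the order by mean CPM per kilobase was Ccng1 (575), Trp53inp1 (203), Phlda3 (180), Mdm2 (128), Bax (92.0), Pmaip1 (60.3), Fas (33.0), Bbc3 (15.7), Sesn1 (11.3) and Zmat3 (8.60). Ccng1 stood clear of the next gene in shCTR libraries, at 351 to 771 CPM per kilobase against 84.2 to 257 for Trp53inp1, and all other neighbours in that order had ranges that overlapped.

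With the Cbx7 hairpin, none of the 10 genes passed the test against shCTR. The edgeR test called 0 of the 10, with 0 at an unadjusted p under 0.05, and DESeq2 called 0. Over all genes edgeR called 0%, 5.85% (975 genes) had an unadjusted p under 0.05, 5.42% had groups that did not overlap, and DESeq2 called 91 genes. Pmaip1 measured 227, 166 and 281 CPM in shCBX7 1, 2 and 5, inside the shCTR range but for the last. Its log2 fold change of 0.45 had a 95% interval of -0.61 to 1.5. Fas had the smallest unadjusted p of the 10, 0.204 (adjusted p = 0.929). It measured 25.3, 64.4 and 51.8 CPM in shCBX7 libraries, against 32.2 to 94.8 CPM in shCTR libraries (log2 fold change -0.53, 95% interval -1.40 to 0.34). Bbc3 measured 32.6, 35.6 and 37.5 CPM, Sesn1 31.2, 50.2 and 27.2 CPM and Zmat3 81.0, 80.9 and 101 CPM in shCBX7 libraries, each overlapping its shCTR values. Mdm2 measured 1010, 568 and 1120 CPM in shCBX7 libraries (log2 fold change 0.46, 95% interval -0.56 to 1.49). The median of the 10 was 0.03, against 0.00 over all genes.

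Set against each other, shCBX8 and shCBX7 libraries differed in the same 5 genes as shCBX8 and shCTR libraries, and both comparisons share the shCBX8 libraries. Over all genes 28.6% passed, 15.3% higher and 13.3% lower, and 48.2% had groups that did not overlap, against 7 of the 10 members. Pmaip1 measured 573 to 1210 CPM in shCBX8 and 166 to 281 CPM in shCBX7 libraries, 2.12 apart on the log2 scale (SE 0.53, adjusted p = 0.0184 by edgeR). The other called values were -1.31 for Bbc3 (adjusted p = 0.0166), -1.47 for Fas (adjusted p = 0.0292), -0.66 for Zmat3 (adjusted p = 0.0270) and -1.16 for Sesn1 (adjusted p = 0.0185). These calls rest on shCBX8 1 and 6: without either, 0 of the 10 passed, at adjusted p of 0.0570 to 0.106 for the 5. Of all replicate pairs these libraries were the most alike, with a chi-square per degree of freedom of 28.1 between their counts. For shCBX8 2 against shCBX8 1 and 6 it was 242 and 265. Over all genes 1848 of 17212 passed without shCBX8 1 and 1784 of 17202 without shCBX8 6. The values themselves changed little, as for Pmaip1 at 1.99 without shCBX8 1 and 1.94 without shCBX8 6. The call of Pmaip1 also ended without shCBX7 1 or 2 (adjusted p = 0.0608 and 0.0657), that of Fas without shCBX7 2 or 5 (0.0794 and 0.0590) or the 3 replicate 2 libraries (0.0630), and that of Zmat3 without shCBX7 5 (0.0714). With the replicate number as a block Fas did not pass either (-1.07, adjusted p = 0.0551). With scaling by library size only, which made 67.1% of all called genes higher against 53.5%, Zmat3 did not pass (-0.52, adjusted p = 0.0854). Bax (-0.51, adjusted p = 0.0639) and Phlda3 (-0.34, adjusted p = 0.182) were lower in every shCBX8 library than in every shCBX7 library without passing.

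**Figure D3:**
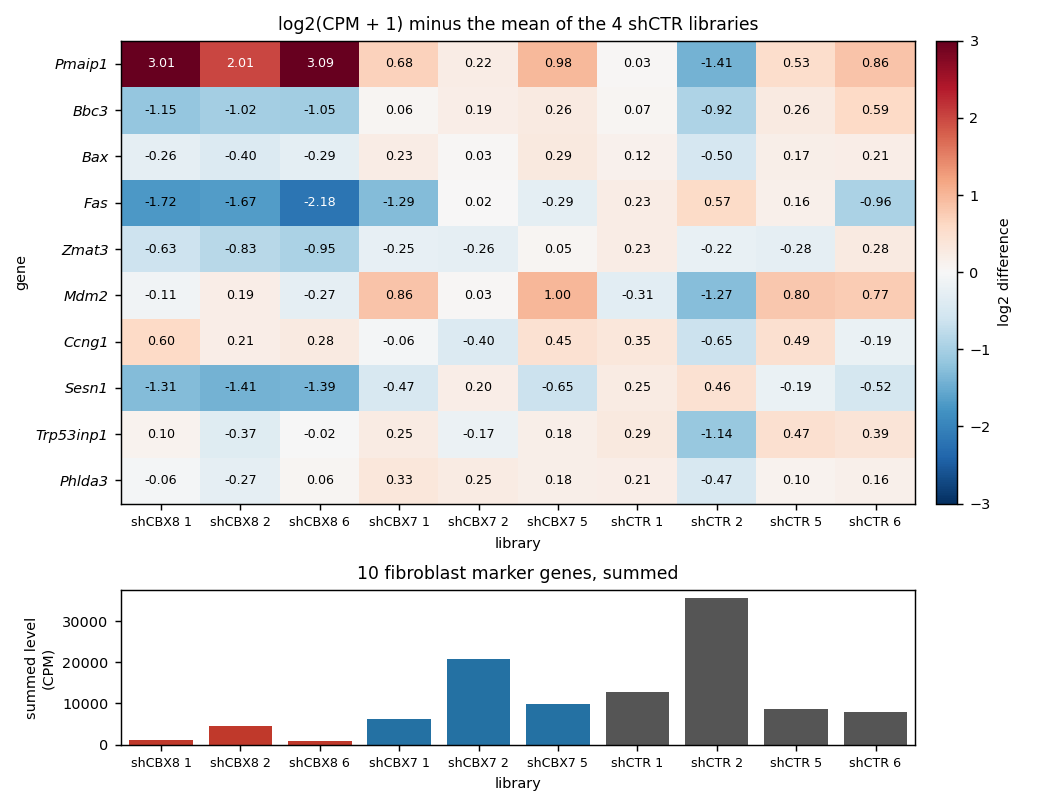
Upper panel, log2(CPM + 1) of each of the 10 genes (rows) in each library (columns) minus the mean of the 4 shCTR libraries; red is higher and blue lower. Lower panel, summed level of 10 fibroblast marker genes in CPM, highest in shCTR 2 and lowest in shCBX8 6. Pmaip1 is 2.01 to 3.09 above the shCTR mean in shCBX8 libraries, and shCTR 2 is the lowest shCTR library for 7 of the genes.

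Within groups the 10 genes varied with the library. In the shCBX8 and shCBX7 groups replicate 2, the one with the highest fibroblast marker sum (4490 CPM in shCBX8 and 20700 CPM in shCBX7), was the lowest library for 6 of the 10 genes. It was the highest for 3 in shCBX8 and for 2 in shCBX7. The same shares over all genes are not given here. In shCTR 2, with the highest sum of all (35700 CPM), Trp53inp1 lay at -1.14, Mdm2 at -1.27 and Pmaip1 at -1.41 relative to the shCTR mean on the log2(CPM + 1) scale. Pmaip1 was lowest in replicate 2 of each of the 3 groups, and between these libraries it measured 573 CPM in shCBX8 2, 166 CPM in shCBX7 2 and 52.5 CPM in shCTR 2. Fas was highest in replicate 2 of each group, and Sesn1 was highest in replicate 2 of shCBX7 and shCTR and lowest in shCBX8 2. Leaving out the 3 replicate 2 libraries gave 6 called members in shCBX8 against shCTR, the 5 above and Bax. Over all genes 6314 of 17354 were called in that fit.

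Upstream of these targets, the p53 gene itself did not pass. Trp53 measured 58.3, 55.4 and 52.8 CPM in shCBX8 libraries, against 40.8, 32.8, 51.4 and 52.6 CPM in shCTR libraries. The shCBX8 libraries lay just above the shCTR libraries, and the log2 fold change was 0.32 (SE 0.20, adjusted p = 0.236 by edgeR). Of 11 genes of the p53 family and its regulators that were tested, 5 rose and 3 fell in shCBX8 against shCTR (median log2 fold change 0.32), where over all genes 17.0% were higher and 15.9% lower. Those that rose were Trp63, which encodes the basal cell factor p63 (1.82, adjusted p = 0.0116), Hipk2, a kinase that phosphorylates p53 (1.33, adjusted p = 0.0166), and the damage kinases Atr (0.72, adjusted p = 0.0260), Chek2 (0.63, adjusted p = 0.0413) and Atm (0.62, adjusted p = 0.0141). Those that fell were Cdkn2a, whose p19Arf product holds back MDM2 (-0.94, adjusted p = 0.0109), the phosphatase gene Ppm1d (-0.53, adjusted p = 0.0461) and Mdm4, the partner of MDM2 (-0.45, adjusted p = 0.0333). With the replicate number as a block Mdm4, Chek2 and Ppm1d did not pass (adjusted p = 0.0538, 0.0541 and 0.0545), and with scaling by library size only Mdm4 and Ppm1d did not (adjusted p = 0.191 and 0.222). The calls depended on single libraries: without shCBX8 1 only Trp63 passed and without shCBX8 6 only Atm, and without shCTR 1, where Mdm4 (0.0535), Chek2 (0.0639), Ppm1d (0.0661) and Atr (0.0533) missed the threshold, 3 rose and 1 fell. Without shCTR 2 Atr (0.0544) and Chek2 (0.0841) missed it, without shCTR 5 Mdm4 (0.0696) and Ppm1d (0.107), and without shCTR 6 Chek2 (0.0701) and Ppm1d (0.0846). With shCTR 1 and 2, the libraries with most unmapped reads, both left out, Hipk2 was the only 1 called higher, and Trp63 (0.0771), Atm (0.0586), Atr (0.118), Chek2 (0.135) and Mdm4 (0.103) missed the threshold. Over all genes 2409 of 16900 were called in that fit. Without shCBX8 1, shCBX8 6 or shCTR 1 the fits called 2261 of 17212, 2279 of 17202 and 3961 of 16383 genes. Trp63 is also 1 of the 8 horizontal basal cell markers, whose sums and mixed directions are given above.

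Among 35 other p53 targets, 5 rose and 10 fell in shCBX8 against shCTR, with a median log2 fold change of -0.14 against -0.01 over all genes, of which 32.9% were called. Cdkn1a, which encodes the cell cycle inhibitor p21, measured 137, 143 and 115 CPM in shCBX8 libraries, against 227, 150, 236 and 280 CPM in shCTR libraries. It fell by 0.76 on the log2 scale (SE 0.20, adjusted p = 0.0184 by edgeR), with shCTR 2 just above the shCBX8 libraries, and its call ended without shCBX8 1 or 6 (adjusted p = 0.0644 and 0.0848) and with scaling by library size only (-0.60, adjusted p = 0.0670). The tetraspanin gene Cd82 measured 12.9, 22.1 and 10.8 CPM in shCBX8 libraries, against 39.0 to 61.0 CPM in shCTR libraries (-1.76, adjusted p = 0.00261). The dicarbonyl reductase gene Dcxr (-1.24, adjusted p = 0.00165) and the lipase gene Abhd4 (-1.19, adjusted p = 0.00166) fell as well. Of those that rose, Rrm2b, the ribonucleotide reductase subunit that supplies nucleotides for repair, measured 77.7, 48.8 and 71.1 CPM in shCBX8 libraries, against 26.3 to 35.1 CPM in shCTR libraries (1.08, adjusted p = 0.00333). The other 4, named after their values were seen, were the stress cytokine gene Gdf15 (2.87, adjusted p = 0.0205), the long noncoding RNA gene Trp53cor1 (1.37, adjusted p = 0.00999), Tigar, a regulator of glycolysis (0.98, adjusted p = 0.0127), and the repair gene Ddb2 (0.79, adjusted p = 0.0221). Up to 67.4% of the stranded counts of Ddb2 in a library lay on the forward strand. Its log2 fold change ran from 0.65 to 9.98 over the 21 alternatives, so its size is not stable. The calls of Cd82, Dcxr, Abhd4, Rrm2b and Trp53cor1 held in all 21 alternatives. Gdf15, Tigar and Ddb2 missed the threshold without shCBX8 1 (adjusted p = 0.0592, 0.0514 and 0.0850) or shCBX8 6 (0.0699, 0.0542 and 0.0934), and the counts were then 2 higher with 6 lower, and 2 higher with 4 lower. Over all genes 2261 of 17212 and 2279 of 17202 were called in these fits. Without shCTR 1, Gdf15 (0.0528) and Ddb2 (0.0572) missed the threshold, and without shCTR 5 Ddb2 did (0.0563). With shCTR 1 and 2 both left out, Gdf15 (0.0987), Tigar (0.0840) and Ddb2 (0.0588) missed it, and 2 rose and 13 fell, where 2409 of 16900 genes were called. With scaling by library size only 5 rose and 6 fell, where 5604 of 16669 genes were called. With the replicate number as a block Ddb2 missed the threshold too (adjusted p = 0.0551). In shCBX7 against shCTR edgeR called 0 of the 35 and 0 of the 11, with 0 at an unadjusted p under 0.05 in both lists, and DESeq2 called 0.

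**Figure D4:**
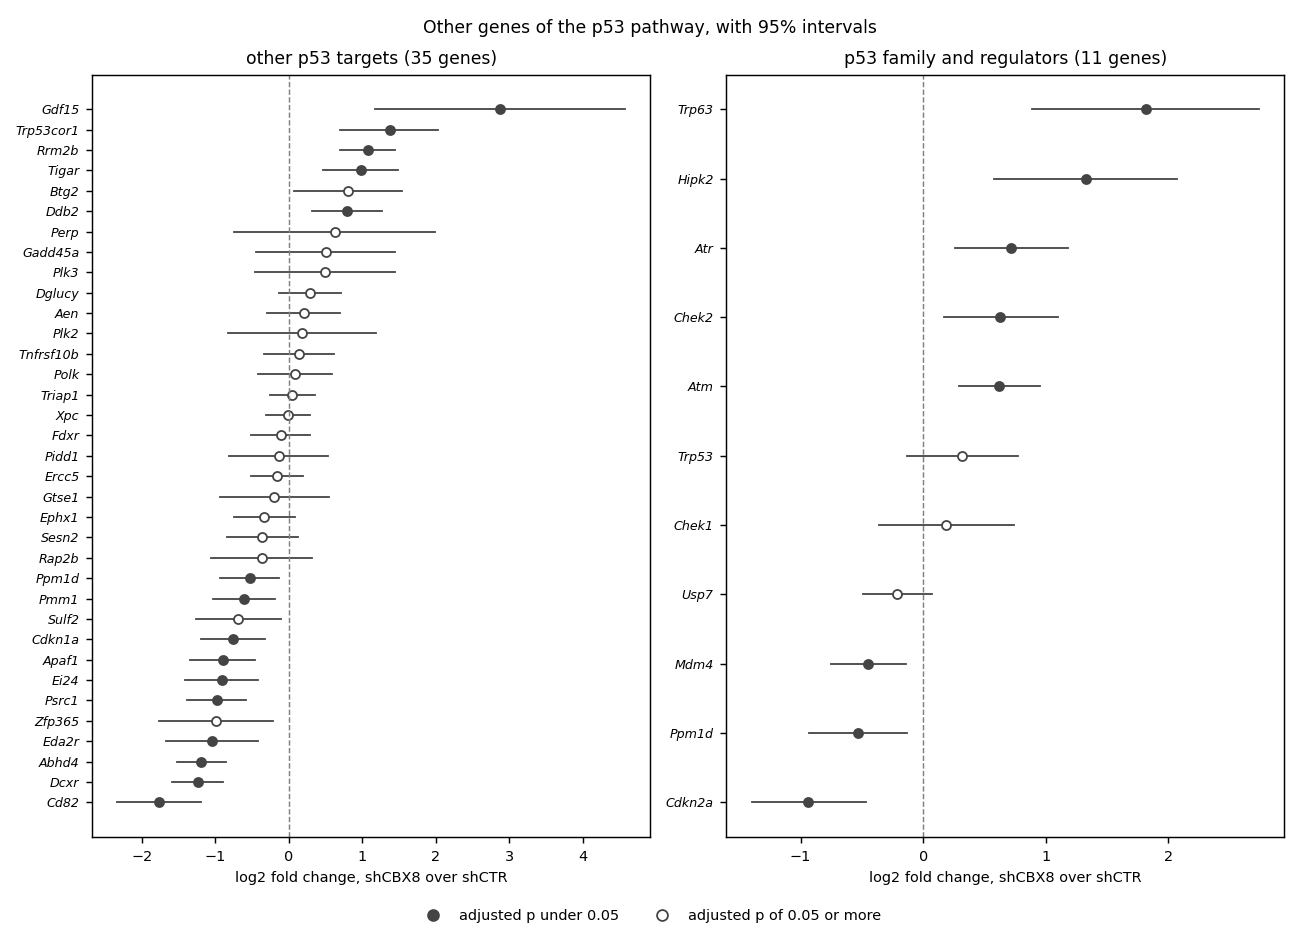
Log2 fold changes of shCBX8 over shCTR (horizontal axes) with 95% intervals for 35 other p53 targets (left) and 11 genes of the p53 family and its regulators (right), ordered by value; filled points passed the adjusted p of 0.05. Filled points lie on both sides of 0 in both panels, 5 to the right and 10 to the left among the targets; Ppm1d stands in both lists.

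In the BCL2 family outside the members, 3 of 12 genes rose and 3 fell in shCBX8 against shCTR, where over all genes 17.0% were higher and 15.9% lower. The BH3-only gene Bcl2l11, which encodes BIM, averaged 15.7 CPM in shCBX8 and 40.4 CPM in shCTR libraries, which did not overlap (-1.36, adjusted p = 0.00347). Bid, the BH3-only gene that links death receptors to mitochondria, measured 104, 62.9 and 95.8 CPM in shCBX8 libraries, against 14.5 to 35.8 CPM in shCTR libraries (1.74, adjusted p = 0.00729). Bok (1.70, adjusted p = 0.0327) and Bik (2.62, adjusted p = 0.0245, at 1.17 CPM in shCBX8 and 0.193 CPM in shCTR) rose, and Bak1 (-0.41, adjusted p = 0.0403) and Bad (-0.44, adjusted p = 0.0497) fell. With the replicate number as a block Bak1 did not pass (adjusted p = 0.0684). Of these 6 calls those of Bid and Bcl2l11 held in all 21 alternatives, and they were the only 2 left without shCBX8 1 or without shCBX8 6. Without shCTR 1, Bok (0.0683), Bad (0.0878) and Bak1 (0.0522) missed the threshold, and without shCTR 5, Bok (0.0683), Bik (0.0586) and Bak1 (0.0816). Without shCTR 2, Bok (0.0732) and Bad (0.0859) missed it, and without shCTR 6, Bik (0.0515) and Bak1 (0.0739). With shCTR 1 and 2 both left out, Bid and Bcl2l11 were the 2 called, in a fit that called 2409 of 16900 genes. The calls of Bak1 and Bad each held in 8 of 21 alternatives.

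Downstream of FAS, the initiator caspase gene Casp8 rose by 0.69 on the log2 scale (adjusted p = 0.00570), and Ripk1, a kinase recruited to death receptors, fell by 0.81 on the log2 scale (adjusted p = 0.00153). Xiap, a caspase inhibitor, had a value of -0.55 with adjusted p = 0.0566, and passed once the replicate number was blocked on (adjusted p = 0.0481). The ligand gene Fasl lay between 0 and 0.0712 CPM in all libraries and was not tested. In the apoptosome list, Cycs, cytochrome c, rose by 0.86 (adjusted p = 0.00543), Apaf1, which binds it, fell by 0.90 on the log2 scale (adjusted p = 0.0103), and Casp9, Diablo and Htra2 did not pass. Without shCBX8 6 the call of Apaf1 ended (adjusted p = 0.0523). With shCTR 1 and 2 both left out that of Casp8 ended (0.0521). The calls of Ripk1 and Cycs held in all 21 alternatives.

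Of 12 cell cycle genes that p53 is known to lower through p21 and the DREAM complex, edgeR called 0 in shCBX8 against shCTR, with 4 at an unadjusted p under 0.05 and a median log2 fold change of -0.99, and DESeq2 called 1. The gene with the smallest p was Mki67, a proliferation marker, at 15.1, 26.9 and 4.13 CPM in shCBX8 libraries, against 72.9, 25.0, 48.6 and 37.2 CPM in shCTR libraries (-1.58, adjusted p = 0.0543). With the replicate number as a block it passed (adjusted p = 0.0452). The count for this list depended on replicate 2: without the 3 replicate 2 libraries 9 of the 12 passed, all lower, with a median of -1.67, without shCBX8 2 alone 7 did and without shCTR 2 alone 3. Over all genes these fits called 6314 of 17354, 6193 of 17405 and 4277 of 16415. In shCBX7 against shCTR edgeR and DESeq2 called 0 of the 12, with 0 at an unadjusted p under 0.05 and a median of 0.31.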

How the data were processed

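Total RNA of 10 libraries was sequenced after stranded library preparation. The submitters' processing notes name bcl2fastq 2.17, Trim Galore 0.4.3, STAR 2.5.0a and the build mm10, and no source used here gives the annotation release. The authors deposited raw read counts per Ensembl gene, with 1 column for unstranded, 1 for forward-strand and 1 for reverse-strand counts. The reverse-strand column was used, since the forward strand held 3.42 to 10.4% of stranded counts. Entries for reads without a gene entered neither library sizes nor tests. They were 5.03 to 21.7% of reads for unmapped, 15.4 to 22.1% for multimapping, 12.5 to 23.6% for reads outside genes and 0.290 to 0.637% for ambiguous ones. Of 41091 identifiers 40217 matched GENCODE M21 (GRCm38), which gave symbols, coordinates and exon lengths. Each pair of replicates differed beyond sampling noise (chi-square per degree of freedom 28.1 to 445), so none was a mere resampling of another. These values cannot tell technical from biological replicates, and each library was counted as 1 replicate.

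Genes were filtered with filterByExpr (minimum count of 10) and scaled by trimmed mean of M values. The quasi-likelihood test of edgeR 4.0.16 (R 4.3.3) used all 10 libraries in 1 model of the 3 groups, with Benjamini-Hochberg adjustment over 16669 genes and a threshold of 0.05. The median 95% interval reached 0.61 (shCBX8 against shCTR), 0.60 (shCBX7 against shCTR) and 0.65 (shCBX8 against shCBX7) to each side on the log2 scale. The script was tested on simulated counts. Single genes were also compared by exact two-sided permutation of log2(CPM + 1). Alternatives were median-ratio (RLE) scaling, no filter, library size only, DESeq2 1.42.0, genes averaging at least 1 CPM, unstranded counts, forward-strand counts subtracted, the replicate number as a block, the 2 groups alone, shCTR 1 and 2 left out, each library left out and a threshold of 0.01, and, added after seeing the data, the 3 replicate 2 libraries left out. The labels do not say whether the replicate numbers pair libraries across groups. Same-numbered shCBX8 and shCTR libraries had r of deviations from the group means of 0.23, 0.29 and 0.13 for replicates 1, 2 and 6. Differently numbered libraries reached r of 0.18 (shCBX8 1 and shCTR 5) and 0.13 (shCBX8 1 and shCTR 6, shCBX8 6 and shCTR 1), so for replicates 1 and 6 the hint of pairing is weak. It is clearer for replicate 2, since shCBX8 2 had r of -0.19 with shCTR 1 and -0.14 with shCTR 5 and 6. Between shCBX7 and shCTR r was -0.07, 0.76 and 0.41 for replicates 1, 2 and 5, and differently numbered libraries reached 0.52 (shCBX7 1 and shCTR 6). For shCBX7 2 the differently numbered shCTR libraries gave 0.05 (shCTR 1), -0.61 (shCTR 5) and -0.56 (shCTR 6). Group was the only factor of the main test, whose p-values ignore any pairing. The replicate number entered as a block only in an alternative.

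The members and all gene lists were chosen with earlier results of these data known. Named genes were the 10 members, Cbx7, Cbx8, Trp53, Mdm4, Cdkn2a, Cdkn1a and up to 4 genes per list with the smallest p in shCBX8 against shCTR and a mean of at least 1 CPM. Atr, Chek2, Ppm1d, Gdf15, Trp53cor1, Tigar, Ddb2, Bik, Bad and Mcl1 were named after their values were seen. Some items that this rule takes are not reported.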

Additional observations from a re-analysis of the deposited data

Results flagged for a closer look

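Bax measured 99.9 CPM in shCTR 2, against 155 to 164 CPM in the other 3 shCTR libraries, a gap of 0.851 of the group's range, above Dixon's critical value for 4 samples. Atr measured 38.1 CPM in the same library, against 56.5 to 58.7 CPM in the other 3, a gap of 0.893 that passed as well. Trp53inp1 (gap 0.825) and Phlda3 (gap 0.815) in shCTR 2 came close without passing. Chance alone sets apart about 1 in 20 groups by this measure. The screen covered every gene of the naming rule and those named after their values were seen, and only Bax and Atr passed. Genes of the same library are not independent, so whether chance accounts for these flags was not tested. Library shCTR 2 had the highest fibroblast marker sum (35700 CPM), the fewest gene counts (22763014) and the highest share of multimapping reads (22.1%). It also had 19.6% unmapped reads, 8.34% of its gene counts in Gm10800 and the lowest scaling factor (0.878). The part of these in the low values was not tested.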

How the results depend on the processing

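In shCBX8 against shCTR, 4 to 6 of the 10 members were called in every alternative at the 0.05 threshold. Between shCBX8 and shCBX7 0 to 6 members were called when 1 library was left out, and 0 at a threshold of 0.01. No called value changed direction. All genes called numbered 2409 in shCBX8 against shCTR with shCTR 1 and 2 left out, and 1844 at a threshold of 0.01, where 1350 were called between shCBX8 and shCBX7. When 1 library was left out, the count ran from 2261 to 6193 in shCBX8 against shCTR, from 1784 to 6005 between shCBX8 and shCBX7 and from 0 to 41 in shCBX7 against shCTR, where DESeq2 called 91. With the replicate number as a block, 5 members and 6036 genes were called in shCBX8 against shCTR, 0 and 0 in shCBX7 against shCTR, and 4 and 4661 between shCBX8 and shCBX7, where Fas was at -1.07 (adjusted p = 0.0551). Between shCBX8 and shCBX7 only replicates 1 and 2 share numbers (r = 0.17 and 0.36). Apart from the calls named with their results, the block changed no call of a member in shCBX8 against shCTR. Leaving out the 3 replicate 2 libraries gave 6 members in both comparisons of shCBX8. Of 17354 genes 6314 were then called against shCTR and 5891 against shCBX7. The intervals of Mdm2, Ccng1 and Trp53inp1 cover changes in either direction, and at this depth Fasl, at 0 to 0.0712 CPM, could not be tested.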
